A study of Rattus norvegicus with 44 samples.

Results

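The proteasome genes of rat cortex were followed after permanent occlusion of the middle cerebral artery (pMCAo). They were taken from the deposited normalized table as the genes whose symbol is Psm, a letter from a to g and a number. This gave 18 of the 9763 gene symbols of that table. Psmc3ip, which carries the letters of a proteasome gene but encodes a partner of meiotic recombinases, was counted apart, so 17 proteasome genes remained: Psma3, Psmb8, Psmb9, Psmb10, Psmd2, Psmd3, Psmd5, Psmd6, Psmd7, Psmd9, Psmd13, Psmd14, Psme1, Psme2, Psme4, Psmg2 and Psmg4. The table holds only probes that varied over the arrays, with a coefficient of variation of the log2 values of at least 2.5%, so the 17 genes were kept for being variable and most constitutive subunits were not among them. In the values computed here, Psma3, which was in the table, and Psmb1, which was not, both lay just under that limit, at 2.47 and 2.45%. The coefficient computed here thus differs a little from that of the authors. The constitutive subunits were therefore read from the scanner files, where 44 proteasome genes had a probe and 43 passed the filter on dim probes: 5 immunoproteasome genes, 30 constitutive subunits of the proteasome, 5 assembly chaperones and 3 further activators or inhibitors.

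Adult Sprague-Dawley rats had the right middle cerebral artery permanently ligated under ketamine, diazepam and atropine with meloxicam, and both common carotid arteries were occluded for a time. The infarct core, the periinfarct cortex around it and the contralateral cortex were taken after 24 h or 3 d. Sham-operated rats had the same anaesthesia and surgery without occlusion and gave ipsilateral and contralateral cortex at both times, and healthy rats without surgery gave ipsilateral cortex. Each of these 11 groups had 4 arrays, and each array held RNA pooled from 3 rats, so an array is a pool and not an animal. Core, periinfarct and contralateral cortex of 1 time came from the same rats, as did both sides of the sham rats of 1 time. The 44 arrays thus came from 20 pools of rats. No contralateral sample of the healthy group was analysed here, and the occlusion model also lowers flow to the contralateral hemisphere, which limits that tissue as a control. Intensities are given as log2 values after quantile normalization, 1 unit being a 2-fold difference, and they were compared within a probe and never between probes. The test was limma's, with 0.05 as the limit of the adjusted p, and a call also needed a 2-fold difference, so a gene within the first limit only is said to have passed the adjusted p alone.

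The proteasome is the large protease that degrades proteins marked with ubiquitin. Its barrel is built of alpha rings, which gate the entry, and beta rings, which hold the catalytic sites, and it is capped by a regulatory particle of ATPases and ubiquitin-handling subunits. Under interferon gamma, and constantly in lymphoid and myeloid cells, the catalytic subunits Psmb5, Psmb6 and Psmb7 are replaced by Psmb8, Psmb9 and Psmb10 in newly built barrels. The barrel is then called the immunoproteasome, its products favour loading on MHC class I molecules, and Psme1 and Psme2 form the activator ring that opens it. In healthy brain the constitutive form dominates, while microglia and entering leukocytes are known sources of the immunoproteasome.

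The promoters of the 5 immunoproteasome genes are shown because the results turn on these genes, with Psmb5 as the constitutive counterpart of Psmb8. They come from the RefSeq table of build GRCr8 and run from 250 bases before to 50 bases after the start, 5′ to 3′ on the strand of the gene. Capitals mark matches on either strand to GAAA, any 2 bases and GAAA again (the core of the interferon-stimulated response element), TTCNNNGAA (the interferon gamma-activated sequence, GAS) or TGACNNNGC (the core of the antioxidant response element).
Psmb8 (chr20:4656982-4657281, minus strand): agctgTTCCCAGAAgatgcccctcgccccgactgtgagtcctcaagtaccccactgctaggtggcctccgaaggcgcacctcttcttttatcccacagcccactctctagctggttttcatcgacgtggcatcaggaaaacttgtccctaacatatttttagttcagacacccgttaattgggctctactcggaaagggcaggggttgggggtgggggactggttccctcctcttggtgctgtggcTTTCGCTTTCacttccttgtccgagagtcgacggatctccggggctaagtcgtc
Psmb9 (chr20:4668750-4669049, plus strand): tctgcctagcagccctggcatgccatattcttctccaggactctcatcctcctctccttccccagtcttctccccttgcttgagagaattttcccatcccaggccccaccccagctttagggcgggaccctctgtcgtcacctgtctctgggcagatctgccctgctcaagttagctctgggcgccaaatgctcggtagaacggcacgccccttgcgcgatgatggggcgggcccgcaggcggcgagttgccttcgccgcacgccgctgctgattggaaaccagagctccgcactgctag
Psmb10 (chr19:50743243-50743542, minus strand): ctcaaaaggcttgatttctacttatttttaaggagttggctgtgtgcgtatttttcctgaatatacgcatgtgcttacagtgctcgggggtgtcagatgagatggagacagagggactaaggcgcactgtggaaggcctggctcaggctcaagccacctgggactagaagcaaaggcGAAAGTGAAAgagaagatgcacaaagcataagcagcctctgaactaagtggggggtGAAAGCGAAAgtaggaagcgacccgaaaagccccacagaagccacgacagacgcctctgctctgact
Psme1 (chr15:33038721-33039020, plus strand): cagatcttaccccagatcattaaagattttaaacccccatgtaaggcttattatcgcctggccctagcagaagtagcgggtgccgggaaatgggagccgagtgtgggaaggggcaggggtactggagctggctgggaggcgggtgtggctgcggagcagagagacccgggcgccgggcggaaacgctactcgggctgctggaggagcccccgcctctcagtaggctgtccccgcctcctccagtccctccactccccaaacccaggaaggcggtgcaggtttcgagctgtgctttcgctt
Psme2 (chr15:33052702-33053001, minus strand): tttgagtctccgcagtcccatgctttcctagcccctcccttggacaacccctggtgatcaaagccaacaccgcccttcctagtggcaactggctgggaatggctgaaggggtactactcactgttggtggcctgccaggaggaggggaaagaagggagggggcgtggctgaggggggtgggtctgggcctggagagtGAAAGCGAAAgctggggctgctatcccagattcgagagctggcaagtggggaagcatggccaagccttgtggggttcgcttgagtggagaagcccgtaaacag
Psmb5 (chr15:32047330-32047629, minus strand): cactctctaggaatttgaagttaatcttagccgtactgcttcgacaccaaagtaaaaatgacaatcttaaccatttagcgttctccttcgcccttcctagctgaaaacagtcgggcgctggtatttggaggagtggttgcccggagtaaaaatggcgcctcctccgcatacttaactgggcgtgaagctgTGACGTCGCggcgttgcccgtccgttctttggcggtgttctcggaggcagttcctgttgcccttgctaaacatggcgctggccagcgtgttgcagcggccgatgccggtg

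The interferon-stimulated response element core was held by 3 of the 5 immunoproteasome promoters, against 3 of 26 constitutive subunits with an entry and 3.92% of all 33469 promoters in the table. Psmb10 had a pair of matches, Psme2 had 1, and Psmb8 had 1 on the reverse strand that overlaps the annotated start, while the windows of Psmb9 and Psme1 held none of the 3 motifs. Psmb8 also held TTCNNNGAA, which was in 3 of 26 constitutive promoters and 8.87% of all promoters. TGACNNNGC was in 0 of the 5 immunoproteasome promoters, in 6 of 26 constitutive ones, Psmb5, Psmb6 and Psmb2 among them, and in 12.1% of all promoters. All 3 motifs were searched on both strands. The windows were matched by letters alone, so a match is a description and neither a bound site nor a cause, and a window without one says nothing about a factor. The 3 motifs do not overlap each other in the promoters printed. Of the 43 proteasome genes, 39 had an entry, and Psmb9 and Psmb8 lie near each other on chromosome 20, as Psme1 and Psme2 do on chromosome 15.

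In the core at 24 h, all 5 immunoproteasome genes rose above healthy cortex, with log2 changes from 0.51 to 1.67 and a median of 0.88, while the median of the 30 constitutive subunits was 0.13 and that of all 34543 probes tested was -0.07. At 2-fold or more, 2 of the 17 genes were called, Psmb8 and Psmb9, where 5.32% of all probes were called upward. In such bulk tissue, fewer cells of a type and less RNA per cell cannot be told apart.

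Psmb8, the catalytic subunit that takes the place of Psmb5, had log2 intensities of 7.19, 7.09, 7.34 and 7.33 in the 4 healthy pools. In the core at 24 h it had 8.87, 8.74, 9.07 and 8.89, and in the periinfarct cortex at 24 h 9.00, 8.64, 9.37 and 9.12. At 3 d it reached 11.06, 10.23, 10.11 and 10.07 in the core and 9.89, 10.07, 7.71 and 9.32 in the periinfarct cortex. Every ischemic array was above every healthy array, and the third periinfarct pool of 3 d, pool 11, was the lowest of them by far. The change from healthy cortex was 1.66 on the log2 scale in the core at 24 h (SE 0.30, 3.15-fold, adjusted p = 9.39e-05) and 1.79 in the periinfarct cortex (3.46-fold, adjusted p = 2.35e-05). At 3 d it was 3.13 in the core (8.75-fold, adjusted p = 5.17e-10) and 2.01 in the periinfarct cortex (4.03-fold, adjusted p = 1.9e-05).

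Psmb9, which replaces Psmb6, had log2 intensities of 8.74, 8.47, 8.57 and 8.85 in healthy cortex, and 10.42, 10.50, 10.28 and 10.09 in the core at 24 h. The periinfarct arrays of 24 h had 10.59, 10.17, 10.59 and 10.43. At 3 d the core had 12.00, 11.68, 11.05 and 12.03 and the periinfarct cortex 11.04, 11.43, 9.18 and 10.67. The ischemic and healthy arrays did not overlap, and pool 11 was again the low periinfarct array. The fold changes from healthy cortex were 3.17 in the core and 3.46 in the periinfarct cortex at 24 h (adjusted p = 0.00011 and 3.04e-05), and 8.19 and 3.79 at 3 d (adjusted p = 1.36e-09 and 4.29e-05).

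Psmb10, the substitute of Psmb7, moved less. Its log2 intensities were 11.67, 11.69, 11.61 and 11.52 in healthy cortex, 12.49, 12.37, 12.40 and 12.18 in the core at 24 h, and 13.12, 12.94, 12.15 and 12.81 in the core at 3 d. The periinfarct cortex had 12.56, 12.35, 12.55 and 12.70 at 24 h and 12.30, 12.40, 11.91 and 12.42 at 3 d. All ischemic arrays lay above the healthy ones, but only in the core at 3 d was the change over 2-fold, at 1.13 on the log2 scale (SE 0.16, 2.19-fold, adjusted p = 6.46e-07). The other changes passed the adjusted p alone, at 0.74 and 0.92 in core and periinfarct cortex at 24 h (adjusted p = 0.000791 and 4.61e-05) and 0.63 in the periinfarct cortex at 3 d (adjusted p = 0.00645).

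Psme1 and Psme2 encode the alpha and beta chains of the activator ring. Psme1 had log2 intensities of 9.80, 9.65, 9.73 and 9.79 in healthy cortex, 10.58, 10.60, 10.67 and 10.63 in the core at 24 h, and 12.18, 11.67, 11.50 and 12.15 in the core at 3 d. In the periinfarct cortex it had 10.72, 10.76, 11.05 and 11.05 at 24 h and 11.48, 11.76, 10.17 and 11.45 at 3 d. No ischemic array reached down to the healthy range, and pool 11 was the nearest to it. Psme1 rose 4.38-fold in the core at 3 d (log2 change 2.13, SE 0.20, adjusted p = 2.8e-10), 2.77-fold in the periinfarct cortex at 3 d (adjusted p = 6.12e-06) and 2.22-fold there at 24 h (adjusted p = 3.04e-05). In the core at 24 h its change of 0.88 passed the adjusted p alone (adjusted p = 0.00106).

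Psme2 had log2 intensities of 10.43, 10.37, 10.39 and 10.40 in healthy cortex, 10.86, 11.07, 10.91 and 10.80 in the core at 24 h, and 11.82, 11.68, 11.25 and 11.52 in the core at 3 d. At 24 h the periinfarct values were 11.03, 11.04, 11.21 and 11.13, followed by 11.23, 11.36, 10.51 and 11.29 at 3 d. Every ischemic array was above the healthy ones, pool 11 by the smallest step. It was called only in the core at 3 d (2.24-fold, SE 0.12 on the log2 scale, adjusted p = 1.98e-09), and its changes of 0.51, 0.70 and 0.70 in the core at 24 h, the periinfarct cortex at 24 h and that at 3 d passed the adjusted p alone (adjusted p = 0.00173, 3.11e-05 and 0.000124). The 4 comparisons with healthy cortex share the same 4 healthy arrays and are not independent of each other.

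**Figure D1:**
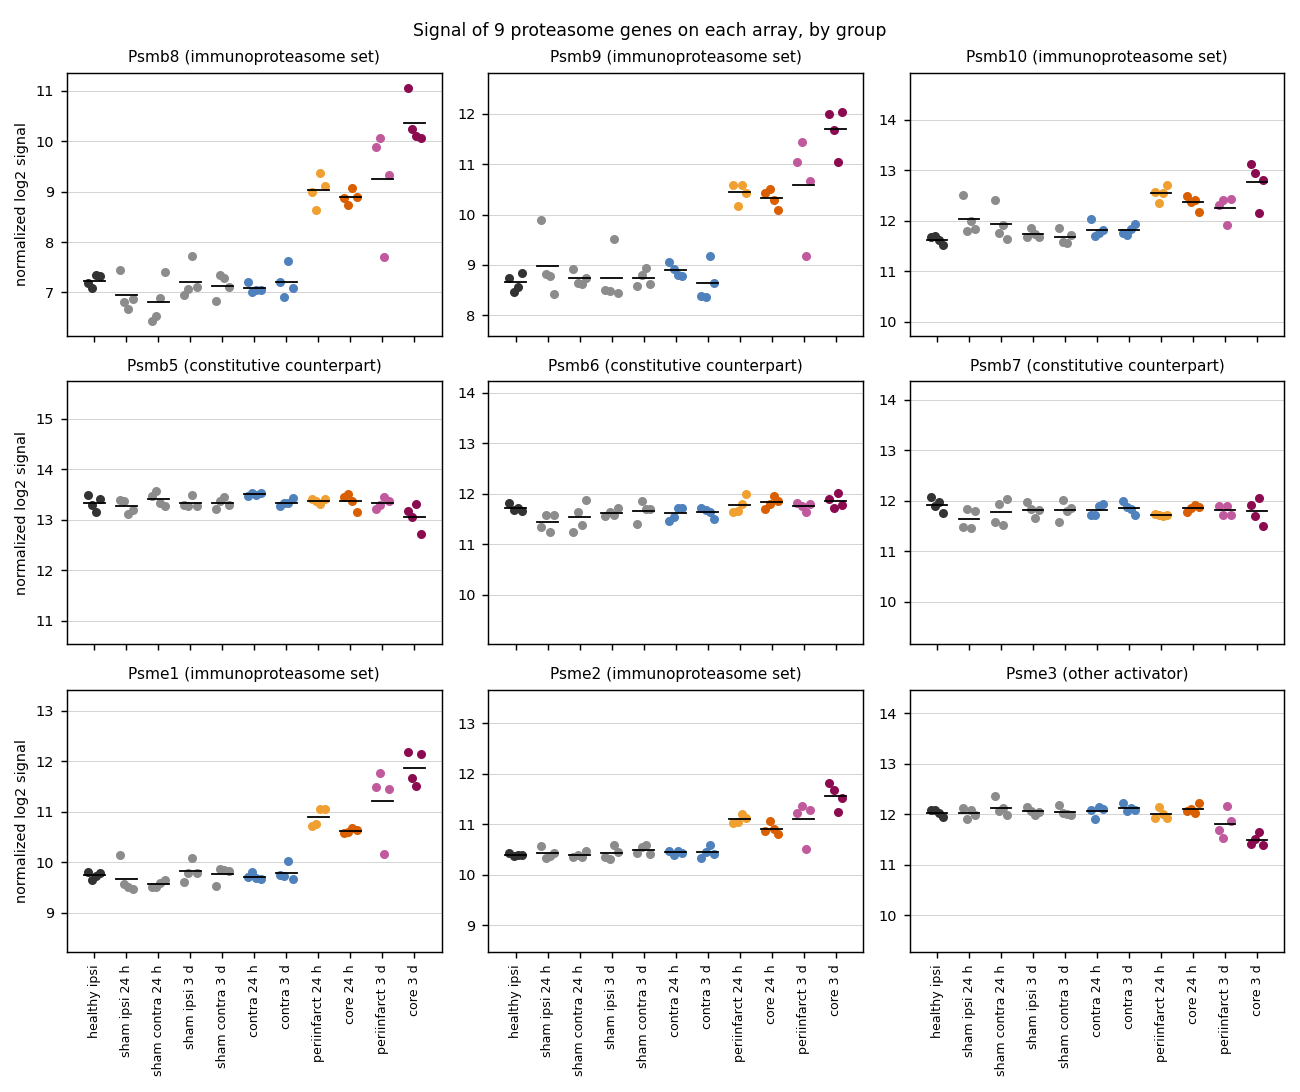
Log2 intensity of the 5 immunoproteasome genes, of the catalytic subunits Psmb5, Psmb6 and Psmb7 and of the activator Psme3 on each of the 44 arrays, by group, each point 1 pool and each horizontal line the group mean, every panel spanning the same number of log2 units. Psmb8 sat between 7.09 and 7.34 in healthy cortex and between 10.07 and 11.06 in the core at 3 d, and the low periinfarct point of 3 d is pool 11 at 7.71.

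Over the members, 4 genes were called upward in the periinfarct cortex at 24 h, where 5.95% of all probes were, 7 in the core at 3 d (10.8%) and 3 in the periinfarct cortex at 3 d (4.68%). None was called downward. These members had been kept for varying over the arrays, so the counts are given as a description. The 5 immunoproteasome genes all passed the adjusted p upward in each of these 3 comparisons too, with median log2 changes of 1.15, 2.13 and 1.47. The medians of the 30 constitutive subunits were 0.12, 0.03 and 0.00, and those of all probes were -0.06, -0.18 and -0.09. With each array scaled to its 75th percentile, the median of all probes for the periinfarct cortex at 24 h moved to 0.15, and the medians of the immunoproteasome genes and the constitutive subunits were then 1.11 and 0.10, so the constitutive median lay below that of all probes instead of above it.

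Called outside the immunoproteasome set were Psmd9 and Psme4. Psmd9 encodes a chaperone that helps to assemble the ATPase base of the regulatory particle. It had log2 intensities of 10.65, 10.19, 10.10 and 10.46 in healthy cortex, 11.33, 11.49, 11.25 and 11.33 in the core at 24 h, and 12.02, 11.89, 11.14 and 12.23 in the core at 3 d. The periinfarct cortex had 11.37, 11.15, 11.40 and 11.73 at 24 h and 11.23, 11.62, 10.39 and 11.00 at 3 d. All arrays of the core and of the periinfarct cortex at 24 h were above the healthy ones, and the periinfarct arrays of 3 d overlapped them through pool 11. Psmd9 rose 2.77-fold in the core at 3 d (log2 change 1.47, SE 0.20, adjusted p = 2.31e-07) and 2.09-fold in the periinfarct cortex at 24 h (adjusted p = 8.5e-05). Its change of 1.00 in the core at 24 h stayed just under 2-fold (adjusted p = 0.000272), and that of 0.71 in the periinfarct cortex at 3 d passed the adjusted p alone (adjusted p = 0.012). The call in the periinfarct cortex at 24 h fell under 2-fold against time-matched sham cortex (0.81, adjusted p = 0.00242) and when healthy pool 19 or periinfarct pool 4 was left out (0.98 and 0.96).

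Psme4, the activator that opens the barrel without ubiquitin, had log2 intensities of 9.77, 9.63, 9.52 and 9.83 in healthy cortex and 10.90, 11.06, 10.21 and 10.93 in the core at 3 d. All core arrays of 3 d were above the healthy ones, by a 2.13-fold difference (log2 change 1.09, SE 0.23, adjusted p = 0.000157). A second probe of Psme4 had a change of 1.08 there (adjusted p = 0.000461). At 24 h its changes of 0.63 in the core and 0.67 in the periinfarct cortex passed the adjusted p alone (adjusted p = 0.0357 and 0.0206), and at 3 d that of 0.49 in the periinfarct cortex did not (adjusted p = 0.138). Psmg4, an assembly chaperone of the alpha ring, passed the adjusted p alone in the core at 24 h, the periinfarct cortex at 24 h and the core at 3 d, with changes of 0.47, 0.59 and 0.44. The chaperones Psmd5 and Psmg2 passed in none of the 4 comparisons with healthy cortex.

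The activator Psme3, which sits on nuclear proteasomes and is no part of the interferon-induced ring, went the other way. Its log2 intensities were 12.08, 12.09, 12.02 and 11.94 in healthy cortex, 12.07, 12.11, 12.02 and 12.22 in the core at 24 h, and 11.40, 11.51, 11.64 and 11.38 in the core at 3 d. The core arrays of 3 d were all below the healthy and the 24 h arrays. Psme3 fell by 0.55 on the log2 scale against healthy cortex (SE 0.10, adjusted p = 2.42e-05) and by 0.63 against the core at 24 h (adjusted p = 9.06e-06), both under 2-fold. It was no member by the rule, since its probe was not in the table. Psmd10, a chaperone of the ATPases also known as the oncoprotein gankyrin, fell by 0.46 in the core at 3 d (adjusted p = 0.00127) and by 0.38 in the periinfarct cortex at 24 h (adjusted p = 0.00836).

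None of the 30 constitutive subunits was called at 2-fold in any of the 4 comparisons with healthy cortex. By the adjusted p alone, 9 rose and 0 fell in the core at 24 h, where 12.5% of all probes passed upward and 16.2% downward. These were Psma2 and Psma6 of the alpha ring, Psmb2, Psmb3 and Psmb4 of the beta ring, the ATPases Psmc2 and Psmc4, the scaffold Psmd1 and the ubiquitin receptor Psmd4, with changes from 0.20 to 0.46. Psmb4 was the highest of them, with 13.04, 13.06, 13.14 and 12.88 in healthy cortex against 13.53, 13.42, 13.64 and 13.37 in the core at 24 h (log2 change 0.46, SE 0.11, adjusted p = 0.00174). Further probes of Psma6, Psmc4 and Psmd1 had changes of 0.08, 0.06 and 0.08 and did not pass. At 24 h in the periinfarct cortex, 9 rose and 0 fell, where 13.9% and 21.5% of all probes did, and the further probes of Psma6, Psmc4 and Psmd1 had changes of 0.23, 0.19 and 0.14 that did not pass. The count of rises in the core at 24 h was 5 without healthy pool 18, healthy pool 20 or core pool 3, and that in the periinfarct cortex was 3 without healthy pool 20 and 4 without periinfarct pool 3. Scaled to the 75th percentile, the periinfarct count was 6 up and 1 down.

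In the core at 3 d, 7 constitutive subunits passed the adjusted p upward and 5 downward. Of the 7 alpha ring subunits, Psma1, Psma2, Psma3, Psma4 and Psma6 passed the adjusted p upward, with Psma3 highest at 0.55 (adjusted p = 0.000206), and Psmb2 and Psmb3 did so in the beta ring, at 0.34 and 0.53. Psma3, a member by the rule, had 11.19, 11.09, 11.29 and 11.06 in healthy cortex and 12.03, 11.66, 11.65 and 11.50 in the core at 3 d, without overlap. Downward went Psmb5, Psmc1, Psmc5, Psmc6 and Psmd7. Psmc5, an ATPase of the base, had 15.18, 15.11, 15.06 and 15.13 in healthy cortex and 14.39, 14.61, 14.80 and 14.58 in the core at 3 d, all below, a fall of 0.52 (SE 0.10, adjusted p = 4.93e-05). A second probe of Psma6 had a change of 0.10 that did not pass (adjusted p = 0.638). Of all probes, 18.8% passed upward and 27.1% downward in this comparison, so these counts are no result about the subunits. The 7 rises and 5 falls were 9 and 6 under normexp background correction, where the constitutive median changed sign to -0.02.

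Some of these falls rested on 1 array or 1 probe. The fall of Psmd7, a scaffold of the regulatory lid, was 0.71 on the log2 scale (adjusted p = 0.00972), and its arrays in the core at 3 d read 8.79, 8.46, 8.88 and 7.18 against 9.05, 9.10, 9.18 and 8.82 in healthy cortex. Pool 12 was far below the others, and the 2 other probes of Psmd7 had changes of -0.12 and -0.17 that did not pass. Without core pool 12, the count of constitutive falls in this comparison was 2. The second probe of Psmc6 had a change of -0.06 (adjusted p = 0.718), against -0.39 for the probe named. At 3 d in the periinfarct cortex, 0 constitutive subunits passed in either direction, where 8.96% of all probes passed upward and 7.84% downward, and without periinfarct pool 11 there were 2 falls.

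The remaining members were subunits of the regulatory particle that passed no comparison with healthy cortex. The largest decreases among them were those of Psmd2, Psmd3, Psmd13 and Psmd14, which encode a scaffold, a lid subunit, a lid subunit and the enzyme that cuts ubiquitin off the substrate. Psmd3 had changes of -0.37, -0.30, -0.48 and -0.35 in the core at 24 h, the periinfarct cortex at 24 h, the core at 3 d and the periinfarct cortex at 3 d (adjusted p = 0.18, 0.271, 0.0528 and 0.263). Psmd13 had -0.27, -0.23, -0.39 and -0.29 in the same order, and Psmd14 -0.21, -0.19, -0.27 and -0.27. The 4 healthy pools were close together for these genes, while the sham arrays of 24 h spread widely and reached lower than any healthy array. Psmd2 read 11.86, 11.91, 12.15 and 12.04 in healthy cortex and 10.53, 11.13, 11.47 and 12.07 in sham contralateral cortex at 24 h, and a second probe of Psmd2 varied less, with an SE of the change of 0.08 against 0.21. That probe had changes of -0.08, -0.02, -0.06 and -0.18, none past the adjusted p, against -0.34, -0.48, -0.19 and -0.19 for the first. Psmd6, another lid subunit, had changes from -0.19 to 0.36 that did not pass.

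**Figure D2:**
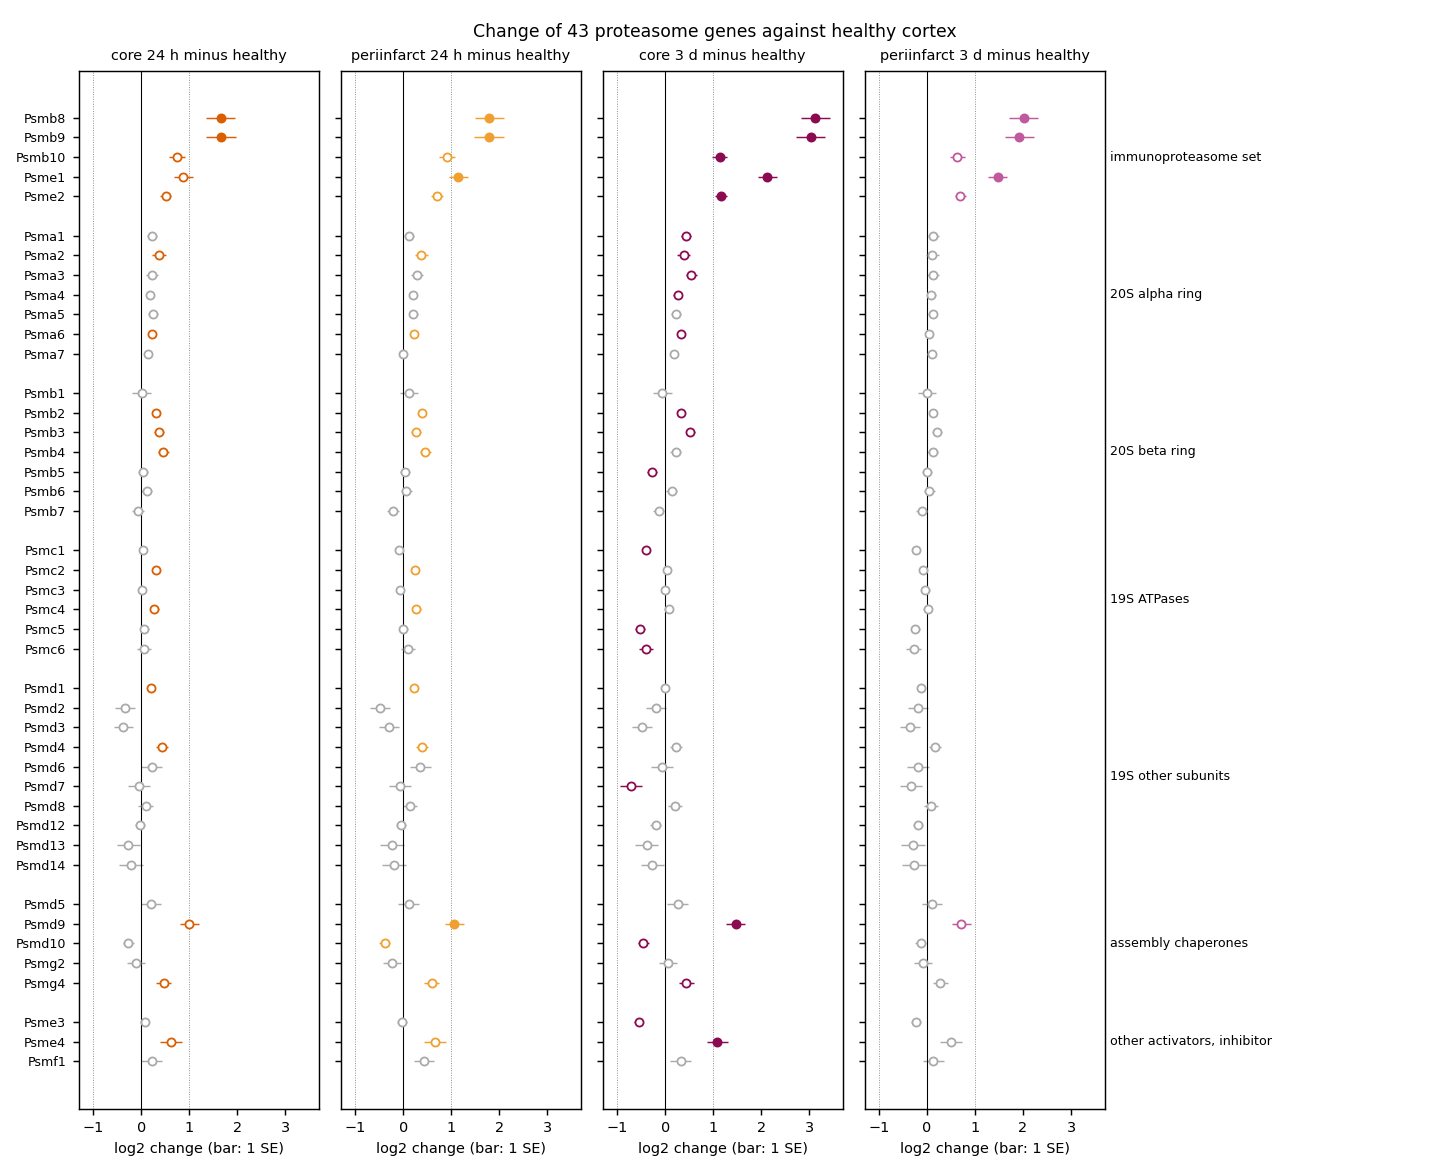
Log2 change from healthy cortex, with bars of 1 SE, for 43 proteasome genes in rows by role and the 4 ischemic groups in panels. Filled points passed the adjusted p and 2-fold, open coloured points the adjusted p alone and grey points neither. In the core at 3 d the 5 immunoproteasome genes lie between 1.13 and 3.13 while the constitutive subunits lie between -0.71 and 0.55. The lowest is Psmd7, whose other probes had -0.12 and -0.17.

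The catalytic subunits that the immunoproteasome subunits replace moved little. Psmb5 had log2 intensities of 13.48, 13.30, 13.16 and 13.41 in healthy cortex and 13.17, 13.06, 13.31 and 12.71 in the core at 3 d, which overlapped. Its change of -0.28 passed the adjusted p (adjusted p = 0.0244) but no longer did when arrays were scaled to the 75th percentile (-0.23, adjusted p = 0.152). The changes of Psmb6 and Psmb7 in the core at 3 d were 0.14 and -0.13 and did not pass (adjusted p = 0.338 and 0.382).

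On each array the change of an immunoproteasome subunit from the healthy mean was set against that of its counterpart. This difference is between changes and not between levels, and it was not tested. For Psmb8 minus Psmb5 it was 1.62 ± 0.24 (SD, n = 4) in the core at 24 h, 1.76 ± 0.32 in the periinfarct cortex at 24 h, 3.41 ± 0.45 in the core at 3 d and 2.02 ± 1.16 in the periinfarct cortex at 3 d. The wide last value came from pool 11, at 0.36. For Psmb9 minus Psmb6 the same groups had 1.55 ± 0.25, 1.73 ± 0.24, 2.90 ± 0.55 and 1.88 ± 0.92, with pool 11 at 0.59 in the periinfarct cortex. For Psmb10 minus Psmb7 they had 0.81 ± 0.17, 1.12 ± 0.14, 1.27 ± 0.58 and 0.75 ± 0.32. Sham cortex was not always at 0, since sham ipsilateral pool 5 of 24 h had 1.62 for Psmb9 minus Psmb6 and 1.33 for Psmb10 minus Psmb7, both in the range of the ischemic arrays.

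**Figure D3:**
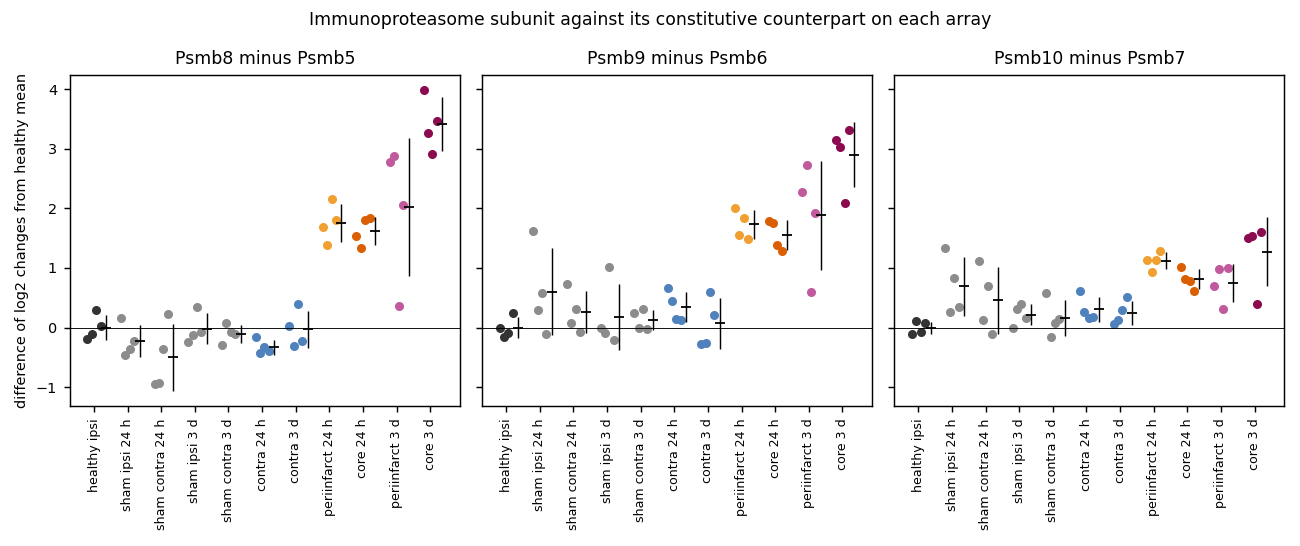
Difference between the log2 change of each immunoproteasome catalytic subunit and that of the constitutive subunit it replaces, per array and group, changes being taken from the healthy mean and bars giving mean and 1 SD. Psmb8 minus Psmb5 lies between 2.91 and 3.99 in the core at 3 d, and pool 11 falls to 0.36 in the periinfarct cortex at 3 d.

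Against the contralateral cortex of the same rats, 2 members were called in the core at 24 h, Psmb8 and Psmb9, where 4.63% of all probes were called upward, and Psmb9 lost that call with slide as a fixed block (log2 change 1.09, adjusted p = 0.0679). In the periinfarct cortex at 24 h there were 3 (6.15%), in the core at 3 d 5 (10.6%) and in the periinfarct cortex at 3 d 3 (4.5%). Within pools, Psmb8 was above its own contralateral cortex by 1.66, 1.74, 2.03 and 1.84 in the core at 24 h and by 3.86, 3.31, 2.49 and 2.98 at 3 d. At 24 h its periinfarct differences were 1.79, 1.63, 2.32 and 2.07, followed by 2.69, 3.15, 0.09 and 2.22 at 3 d. The third of the last 4 is pool 11, in which the periinfarct piece was at the level of the contralateral piece while the core piece was 2.49 above it. The same pool had periinfarct differences of 0.00 for Psmb9, 0.06 for Psmb10, 0.14 for Psme1 and -0.07 for Psme2 at 3 d. The contralateral piece of pool 11 was itself the highest of its group for Psmb8 minus Psmb5 and Psmb9 minus Psmb6, at 0.39 and 0.60. For Psmb10 minus Psmb7 it had 0.30 and was not the highest. The small differences of pool 11 thus involve its contralateral piece as well as its periinfarct piece.

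**Figure D4:**
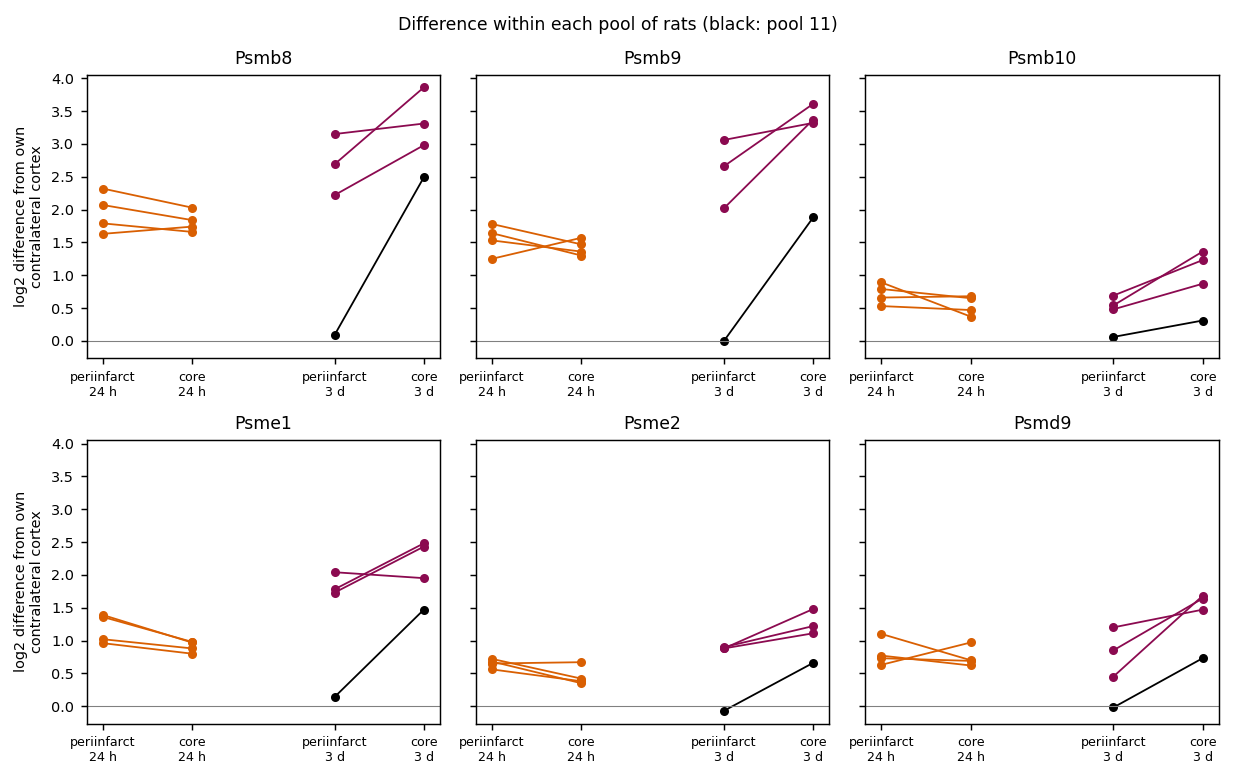
Log2 difference of periinfarct and core cortex from the contralateral cortex of the same pool of rats, for the 5 immunoproteasome genes and Psmd9 at 24 h and 3 d, with a line joining the pieces of a pool and pool 11 in black. For Psmb8 at 3 d, the periinfarct piece of pool 11 differs by 0.09 from its contralateral piece, and those of the other pools by 2.22 to 3.15.

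Between core and periinfarct cortex at 24 h no member was called or passed the adjusted p, and 0 of the 17 genes had an unadjusted limma p below 0.05, where 0.124% of all probes were called in either direction. Within pools, Psme1 was lower in the core in all 4, by differences of -0.14, -0.16, -0.38 and -0.42 (mean over arrays -0.28, SE 0.20, adjusted p = 0.587), and Psmb8, Psmb9, Psmb10 and Psme2 were lower in 3 of 4. At 3 d, Psmb8 was 2.17-fold higher in the core (log2 difference 1.12, SE 0.30, adjusted p = 0.0128, groups not overlapping) and Psmb9 2.16-fold (1.11, adjusted p = 0.0148, groups overlapping), where 2.73% of all probes were called upward. Psmb10, Psme1, Psme2, Psmd9 and Psma3 passed the adjusted p alone, with differences of 0.50, 0.66, 0.47, 0.76 and 0.43, where 6.86% of all probes passed upward. These calls rested on single arrays. Without periinfarct pool 11 the differences of Psmb8 and Psmb9 were 0.61 and 0.64 (adjusted p = 0.158 and 0.181), and without core pool 9 they were 0.89 and 1.01 (adjusted p = 0.102 and 0.0852), so 0 members were called either way, and without core pool 12 Psmb9 went to 1.00 and missed 2-fold. Psme3 was lower in the core, by 0.33 on the log2 scale (adjusted p = 0.0257).

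From 24 h to 3 d, Psmb8, Psmb9 and Psme1 rose further in the core, by 2.78-fold (log2 change 1.48, SE 0.30, adjusted p = 0.000231), 2.58-fold (1.37, adjusted p = 0.000674) and 2.39-fold (1.25, adjusted p = 6.75e-06), where 7.68% of all probes were called upward. For these 3 genes, every core array of 3 d was above every core array of 24 h. Psme2 passed the adjusted p alone (0.66, adjusted p = 5.95e-05), and Psmb10 did not pass (0.39, adjusted p = 0.061). Among the constitutive subunits, 1 passed upward, Psma3, and 7 downward, Psmb5, Psmc1, Psmc2, Psmc5, Psmc6, Psmd1 and Psmd7, Psmc5 with the change of -0.59 (adjusted p = 1.93e-05), where 15.3% and 17.6% of all probes passed. Further probes of Psmc6 and Psmd1 had changes of -0.27 and -0.23 that did not pass (adjusted p = 0.0968 and 0.219), and those of Psmd7 had -0.25 and -0.27 (adjusted p = 0.0579 and 0.146). The count downward was 4 without core pool 1 or pool 3 of 24 h, and the count upward was 0 without core pool 1, 2 or 4 of 24 h or core pool 9 of 3 d and 2 without core pool 11 or pool 12 of 3 d.

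No member was called in the periinfarct cortex between 24 h and 3 d, where 5.13% of all probes were called in either direction, and the changes of Psmb8, Psmb9, Psmb10, Psme1 and Psme2 were 0.22, 0.13, -0.28, 0.32 and -0.01. At an unadjusted p below 0.05, 0 members passed upward and 1 downward. Pool 11 of 3 d, the lowest of its group for all these immunoproteasome genes, enters these changes, and their values without it are not given. For Psmb9, Psme1 and Psme2 every other periinfarct array of 3 d was above every one of 24 h. For Psmb8 and Psmb10 they overlapped. The small changes are thus no sign that these genes stayed level in the other pools. The constitutive Psmb2, Psmb4, Psmc2 and Psmd1 fell by the adjusted p alone, by 0.27, 0.35, 0.34 and 0.34, where 6.62% of all probes passed downward. A second probe of Psmd1 had a change of -0.27 that did not pass (adjusted p = 0.21), and 1 of the further probes of Psmd7 passed at -0.42 (adjusted p = 0.0403) while the probe used did not (adjusted p = 0.437). The 4 falls were 2 without periinfarct pool 9 or pool 12 of 3 d and 6 without pool 11.

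Whether the step from 24 h to 3 d differed between areas was tested with interaction terms. The difference between core and contralateral cortex grew for Psmb8 by 1.34 on the log2 scale (adjusted p = 0.028), for Psmb9 by 1.62 (adjusted p = 0.0091) and for Psme1 by 1.18 (adjusted p = 0.00349), where 6% of all probes were called upward. With the pool as a block Psmb8 kept the value of 1.34 but missed the threshold (adjusted p = 0.0812), and it also missed it without contralateral pool 10 of 3 d (1.25, adjusted p = 0.0607) or core pool 9 (1.11, adjusted p = 0.0898). The difference between core and periinfarct cortex grew by the adjusted p alone for Psme1 (0.94, adjusted p = 0.0344) and Psme2 (0.66, adjusted p = 0.0191), where 3% of all probes passed upward, and the terms of Psmb8 and Psmb9 were 1.26 and 1.23 (adjusted p = 0.0565 and 0.0656). At 2-fold, 0 members were called for that term, where 4.53% of all probes were, and 4 were called without periinfarct pool 10 or core pool 11 of 3 d. Periinfarct pool 11 of 3 d was the lowest of its group for the immunoproteasome genes. It enters this term and that of periinfarct against contralateral cortex, and the values of single genes without it are not given. For the difference between periinfarct and contralateral cortex 0 members were called, where 2.12% of all probes were, and at an unadjusted p below 0.05 the numbers were 0 upward and 1 downward.

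Surgery alone gave no called member. Sham ipsilateral against healthy cortex had 0 members with an adjusted p below 0.05 at 24 h and at 3 d. By the adjusted p and 2-fold together, 0% of all probes were called at either time. At an unadjusted limma p below 0.05 there were 2 members upward and 6 downward at 24 h and 0 at 3 d. No share of all probes at an unadjusted p is given, here or in the other comparisons, so such counts are no result about the members. Psmb9 nonetheless read 9.90, 8.82, 8.78 and 8.42 in sham ipsilateral cortex at 24 h and 8.51, 8.48, 9.52 and 8.45 at 3 d, so 1 pool at each time was above the healthy range of 8.47 to 8.85. Psmb10 read 12.51, 11.79, 12.00 and 11.83 in sham ipsilateral cortex at 24 h, all above the healthy arrays, with a change of 0.41 that did not pass (adjusted p = 0.136). Contralateral cortex of infarct rats against that of sham rats gave 0 members with an adjusted p below 0.05 or an unadjusted p below 0.05 at either time, where 0.00289% of all probes were called at 24 h and 0% at 3 d. Psmb8 stayed between 6.92 and 7.62 over the 8 contralateral arrays of infarct rats.

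The arrays lay on 11 slides of 4, each holding several groups. Where a slide held both groups compared, Psmb8 was above healthy cortex by 1.41 in the core at 24 h, 1.77 in the periinfarct cortex at 24 h, 2.93 in the core at 3 d and 2.74 in the periinfarct cortex at 3 d, each from 1 slide. On those slides Psmb9 was above by 1.65, 1.86, 2.31 and 2.58 and Psme1 by 0.80, 1.32, 1.70 and 1.96. Psmb10 was above by 0.85, 1.09, 0.49 and 0.87, Psmd9 by 1.03, 1.62, 0.49 and 1.16, and Psme2 by 0.66, 0.73, 0.81 and 0.95. In the core at 3 d, the values of these last 3 genes on the shared slide were thus under 2-fold, against 1.13, 1.47 and 1.17 over all arrays. The core array of that slide was that of pool 11, so slide and pool cannot be told apart in these values. The core at 3 d exceeded the core at 24 h on its shared slide by 2.19 for Psmb8, 1.58 for Psmb9, 1.59 for Psme1, 0.96 for Psme2 and 0.63 for Psmb10. Periinfarct cortex of 3 d and of 24 h shared 1 slide, with differences of 0.50 for Psmb8, 0.29 for Psmb9, 0.71 for Psme1 and 0.25 for Psme2. Those of Psmb10 and Psmd9 were -0.04 and -0.27.

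Lists of related genes were counted beside the proteasome genes, each against healthy cortex. Of all 34543 probes, 5.32, 5.95, 10.8 and 4.68% were called upward in the core at 24 h, the periinfarct cortex at 24 h, the core at 3 d and the periinfarct cortex at 3 d. Downward, 1585, 2302, 3656 and 304 probes were called in that order. Among 9 other genes of MHC class I antigen processing, 1 was called upward in the core at 24 h, 3 in the periinfarct cortex at 24 h, 7 in the core at 3 d and 2 in the periinfarct cortex at 3 d, and none downward. Tap1, a chain of the peptide transporter that feeds MHC class I molecules, was called in all 4, with changes of 1.33, 1.44, 2.17 and 1.43, and its partner chain Tap2 in the periinfarct cortex at 24 h and the core at 3 d (1.09 and 1.34). B2m, the light chain of the MHC class I molecules, was called in the core at 3 d (1.36) and not in the other 3. Among 20 interferon response genes, 9, 11, 13 and 13 were called upward in the same order, with medians of 0.89, 1.11, 1.37 and 1.28. Irf1, a transcription factor of that response, was called in the core at 3 d (1.04). The probe of Ifng, the gene of interferon gamma itself, did not pass the filter on dim probes.

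The remaining machinery of ubiquitin and the proteasome moved less. Of 15 ubiquitin and cofactor genes, 0, 1, 1 and 0 were called, with medians of 0.04, -0.02, -0.15 and -0.15. The called gene was Nfe2l2, a transcription factor of the antioxidant response, at 1.01 in the periinfarct cortex at 24 h and 1.45 in the core at 3 d. Pomp, the chaperone needed to build new barrels, had changes of 0.16, 0.08, 0.16 and 0.03 and was not called. Of 6 heat shock genes, 3, 3, 2 and 1 were called upward. In the periinfarct cortex at 3 d their mean log2 level was 11.85 in pool 11 and 12.45 to 12.72 in the other pools. Healthy cortex had 11.85 to 11.98.

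Markers of other cells moved with the immunoproteasome genes. Of 10 markers of microglia and macrophages, 5, 5, 9 and 8 were called upward in the 4 comparisons, and 1 downward in each at 24 h. Their mean log2 level ran from 7.37 to 7.63 in healthy cortex, from 8.54 to 8.80 in the core and 8.31 to 8.87 in the periinfarct cortex at 24 h, and from 10.25 to 11.13 in the core at 3 d. In the periinfarct cortex at 3 d it ran from 7.90 to 10.37, and the lowest was pool 11, the pool in which the immunoproteasome genes were low. The phagocyte markers Cd68, Itgam and Aif1 rose by 6.25, 2.95 and 3.11 on the log2 scale in the core at 3 d, and the leukocyte marker Ptprc by 1.85. Of 7 T lymphocyte markers, 2, 1, 5 and 4 were called upward, and their mean level was 3.23 to 3.40 in healthy cortex, 5.83 to 6.85 in the core at 3 d and 3.57 to 6.00 in the periinfarct cortex at 3 d, with pool 11 lowest again. Cd8a, of this list, was not well above background on any healthy array and was at least 210-fold higher in the core at 3 d, and Cd4 rose by 1.26 there. The healthy mean level of the list thus includes signal not well above background. Of 4 neutrophil markers, 2, 2, 4 and 3 were called upward. Of 9 neuron markers, 1, 3, 6 and 2 were called downward, and their mean level was 11.28 to 11.43 in healthy cortex, 9.67 to 10.91 in the core at 3 d and 10.28 to 11.17 in the periinfarct cortex at 3 d, with pool 11 highest. The core piece of pool 11 stood apart from the other core pieces of 3 d too: its neuron markers were at 10.91 against 9.67 to 9.96, and it was the lowest of them for macrophage, T lymphocyte and neutrophil markers, at 10.25, 5.83 and 4.92, as it was for Psmb9, Psmb10, Psme1, Psme2 and Psmd9. Among the neuron markers, Syt1, a synaptic vesicle protein, had a change of -0.64 in the core at 3 d that did not pass (adjusted p = 0.108). Of 6 astrocyte markers 1 was called upward in each comparison, Gfap, at 2.88, 3.33, 3.50 and 3.32, and 1 downward in each at 24 h, and 0 markers of oligodendrocytes or endothelium, of 5 each, were called, though 2, 3, 2 and 0 of the oligodendrocyte markers passed the adjusted p downward and 1, 2, 0 and 0 of the endothelial markers upward. Interferon response genes had a mean level of 6.97 in periinfarct pool 11 against up to 8.16 in that group. In the contralateral cortex of 3 d their mean level was 6.99 in pool 11 and 5.86 to 6.04 in the other pools. The part of these cells in the changes of the proteasome genes was not tested.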

How the data were processed

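RNA of the cortical areas of 20 pools of rats was hybridised to 44 1-colour Agilent rat arrays. Per the submitters' processing notes, the authors read the intensities with Agilent Feature Extraction 10.7.3.1, and the deposited processed signal intensity is background-subtracted. The deposited table of log2 values was thresholded, quantile normalized and filtered on variability by the authors, and it gives a coefficient of variation in percent. The deposited spot flags, scored 0 or 1, mark uneven spots and signal above background. The labels name a kit for small RNA, whereas the study's methods give 1-colour mRNA labelling by amplification with Cy3.

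Here, intensities under 1 were set to 1, logged and quantile normalized, uneven and outlier spots were set to missing, and the spots of a probe were averaged. Probes were kept where, in at least 1 group, 75% of arrays were over the 20th percentile and above background, which left 34543 of 41012, of which 155 had a missing value on some array. On each array 62.5 to 77.7% of spots were well above background, and 0 were saturated. Groups came from the labels, and limma 3.58.1 in R 4.3.3 fitted all 44 arrays with 1 mean per group (33 residual degrees of freedom) and the Benjamini-Hochberg correction per comparison, in 16 comparisons and 3 interaction terms. The script was tested on simulated data. A gene with several probes was read from 1 probe, that of the highest mean signal past the filter. For a member it was chosen among its probes in the deposited table, which were kept for varying. Psmd7 was thus read from a probe of mean log2 signal 8.87 where another had 12.57, and Psmd2 from 11.66 where another had 14.42. Other probes are given beside the comparisons described where their calls differed. Probes were named from their target accession, and 48 proteasome pseudogenes are annotated, and cross-hybridisation with them was not tested. The number of arrays limits the precision. Named genes were the members called in a comparison, the immunoproteasome genes with their constitutive counterparts, and those that a count turns on. The members and lists were chosen with earlier results of these data known.

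Areas of 1 time share rats per the labels. Deviations from the group mean correlated at 0.15 on average between core and periinfarct cortex of the same pool at 24 h and at -0.002 at 3 d. With contralateral cortex these means were 0.122 for the core and 0.116 for the periinfarct cortex at 24 h, and 0.037 and -0.107 at 3 d. Alternatives were other scaling, background correction, the deposited table, no filter, sham controls, slide or pool as a block, no fold minimum, averaging the probes per gene and leaving out each array. A filter on variability and slide as a fixed block were added after seeing the data. Promoters were read with Python 3.11.15 and figures drawn with matplotlib 3.10.9. Healthy contralateral cortex and PCR measurements were not analysed here.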

Additional observations from a re-analysis of the deposited data

Results flagged for a closer look

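Single arrays stood apart in 6 of 77 sets of 4 arrays (7 genes in 11 groups), where chance flags about 1 in 20. Psmb8 read 11.06 in core pool 9 of 3 d, above the other 3. Psmb9 read 9.52 in sham ipsilateral pool 15 of 3 d, and Psme1 read 10.14 in sham ipsilateral pool 5 of 24 h, both above the rest of their group. Psme1 read 9.52 in sham contralateral pool 13 of 3 d, below the rest. Psme2 read 10.51 in periinfarct pool 11 of 3 d, the array that was lowest in its group for all 5 immunoproteasome genes. Psmd9 read 10.52 in contralateral pool 2 of 24 h, below the rest.

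The step from 24 h to 3 d differed between areas by an interaction term of limma. Against contralateral cortex, the core gained 1.34 for Psmb8, 1.62 for Psmb9, 1.18 for Psme1 and 0.66 for Psme2 on the log2 scale. Against periinfarct cortex, it gained 0.94 for Psme1 and 0.66 for Psme2. These 2 terms include the low periinfarct pool 11 of 3 d, and their values without it are not given. Those of Psmb8, Psmb9 and Psme1 against contralateral cortex were over 2-fold.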

How the results depend on the processing

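No call of a member changed direction under any alternative run. Without the fold minimum, 8 members passed in either direction in the core at 24 h, 8 in the periinfarct cortex at 24 h and 6 in the periinfarct cortex at 3 d against healthy cortex. Of all probes, 12.5, 13.9 and 8.96% passed upward in these comparisons and 16.2, 21.5 and 7.84% downward. Against contralateral cortex the numbers were 7 and 8 in core and periinfarct cortex at 24 h and 9 and 5 at 3 d, given without a share of all probes and as a description. Between core and periinfarct cortex at 3 d 7 passed, where 6.86% of all probes passed upward. Between core at 3 d and 24 h 6 passed, where 15.3% passed upward and 17.6% downward. For the change with time of core against periinfarct cortex 2 passed, where 3% passed upward. With the fold minimum, the count for that last term was 2 with normexp, with the deposited table or with slide as a random block and 1 with the mean of a gene's probes, against 0. With slide as a fixed block, added after seeing the data, 1 member was called in the core at 24 h against contralateral cortex. Leaving out each array gave 2 to 3, 3 to 4, 6 to 7 and 3 to 3 calls against healthy cortex (core 24 h, periinfarct 24 h, core 3 d, periinfarct 3 d), 2 to 2, 3 to 3, 5 to 7 and 3 to 3 against contralateral cortex, 0 to 2 between core and periinfarct cortex at 3 d, 3 to 3 between core at 3 d and 24 h, and 2 to 3, 0 to 0 and 0 to 4 for the interaction terms of core and contralateral, periinfarct and contralateral, and core and periinfarct cortex. Pool as a replicate block changed the call of Psmb8 in the first of these terms (1.34, adjusted p = 0.0812) and no count of members by over 1.5 times. Psme4 in the core at 3 d was 1.00 against sham cortex (adjusted p = 0.000486) and 0.99 without core pool 10.

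Scaling to the 75th percentile raised the share of upward calls among all called probes from 47.2 to 68.8% for periinfarct against healthy cortex at 24 h and from 52.6 to 75.2% for periinfarct against contralateral cortex at 24 h. It lowered that share from 34.9 to 14.8% between core and periinfarct cortex at 24 h, from 59.3 to 36.1% between periinfarct cortex at 3 d and 24 h, and from 50.7 to 31.6% for the change with time of periinfarct against contralateral cortex, and raised it from 37.1 to 52.6% for that of core against periinfarct cortex. The cause was not tested.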

Other observations

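Psmc3ip, which shares only its letters with the proteasome genes, had log2 intensities of 7.71, 7.61, 7.50 and 7.46 in healthy cortex and 8.81, 8.59, 7.94 and 8.93 in the core at 3 d, without overlap. Its change of 1.00 stayed just under 2-fold (1.99-fold, adjusted p = 1.3e-06). The probe of Psmf1, an inhibitor of the proteasome, was in the deposited table under another symbol and so outside the rule, and Psmf1 passed the adjusted p in none of the 4 comparisons with healthy cortex.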
